A study of Mus musculus with 48 samples.

Results

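Liver RNA from 2 successive circadian cycles in constant darkness was compared hour by hour. Each pool from the second cycle, CT42 to CT59, was set against the pool taken 24 h earlier in the first cycle, CT18 to CT35, which gave 18 pairs and 36 of the 48 hourly pools of the series. CT is circadian time in hours, counted from the start of the first subjective day. All 45101 probe sets of the array entered the comparison, and no probe set was chosen by its level or by its rhythm. The pairing takes out any rhythm that the cycles share, and the differences below are read as differences in level. The pairs cover circadian hours 18 to 23 and 0 to 11 only. For a rhythmic gene, a change of phase or amplitude between the cycles can therefore also leave a mean difference.

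Both groups were male C57BL/6J mice, 6 weeks old, entrained for 1 week to 12 h of light and 12 h of dark and then kept in darkness. At every hour 3 to 5 livers were pooled and measured on 1 Affymetrix mouse genome array, so that the groups differed in the time spent in darkness and in nothing else that the descriptions name. The replicates of the comparison are hours, not repeated pools of the same hour. The p-values therefore measure the spread of the difference between hours, and a batch of arrays or a day of handling that followed the order of collection cannot be told apart from the cycle.

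Most liver transcripts come from hepatocytes, which carry out lipid, sugar and bile acid metabolism and the breakdown of drugs. Smaller numbers of Kupffer cells (the resident macrophages), sinusoidal endothelial cells and stellate cells add their own transcripts. In mice held in darkness the liver clock runs on a transcription-translation loop, in which the activators CLOCK and BMAL1 (gene symbol Arntl) drive the Per, Cry and Nr1d genes that later repress them, and the clock in turn paces many metabolic genes. Without light cues the phase of each animal drifts at its own period. The hepatocyte genes Alb, Ttr, Apoa1 and Fgb were among the brightest on the arrays, and the 5 hepatocyte markers measured differed between the cycles by -0.09 (Hnf4a) to 0.02 (Alb) on the log2 scale, with 1 of them, Apoa1, called lower.

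Array-wide measures moved with the cycle and are given before any gene. The median log2 intensity lay between 6.59 and 6.71 in second-cycle pools and between 6.57 and 6.66 in first-cycle pools, a mean difference of 0.0347 that was positive in 16 of 18 pairs (two-sided permutation test, Benjamini-Hochberg adjusted over 8 measures, p = 0.00256). The 75th percentile of log2 intensity averaged 9.93 in the second cycle and 9.99 in the first, lower in 16 of 18 pairs (permutation test, adjusted p = 0.00256). Dim values thus lay slightly higher and bright values slightly lower in the second cycle. The 18S rRNA control averaged 13.9 in the second cycle and 14.2 in the first on the log2 scale, lower in 15 of 18 pairs (permutation test, adjusted p = 0.00981). The 3′ minus 5′ log2 difference of the Actb control, which rises when RNA is shortened from its 5′ end, lay between 1.34 and 1.89 in the second cycle and between 1.29 and 2.36 in the first (permutation test, adjusted p = 0.0736). It exceeded 1.9 in 6 of the 36 pools, CT26 to CT28 and CT31 to CT33, all of them from the first cycle, and calls are set against a fit without these 6 pairs.

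**Figure D1:**
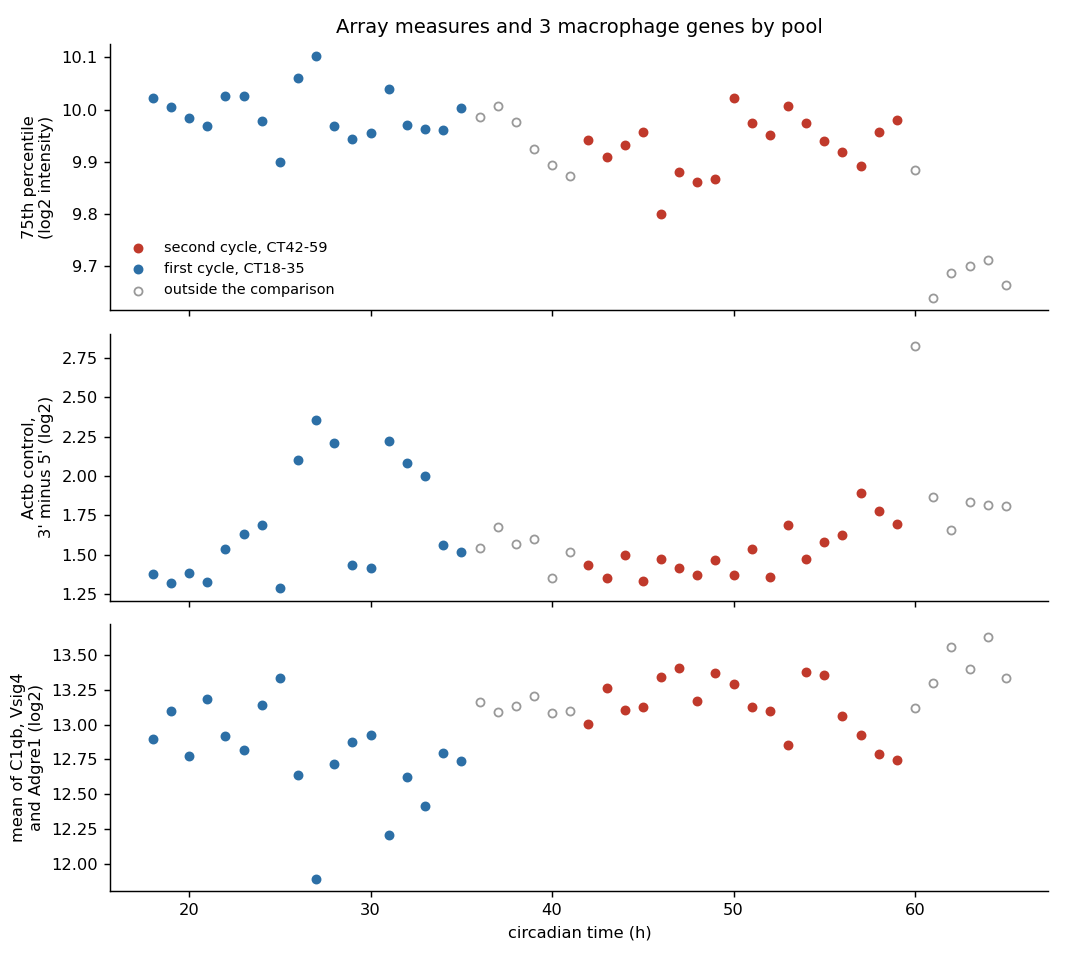
Values of each pool by circadian time (h): the 75th percentile of log2 intensity (top), the Actb control 3′ minus 5′ log2 difference (middle) and the mean log2 intensity of 3 macrophage genes (bottom), with second-cycle pools in red, first-cycle pools in blue and the 12 pools outside the comparison as open circles. The 3 macrophage genes are the Kupffer cell markers that were called higher, C1qb, Vsig4 and Adgre1. The Actb difference exceeded 1.9 in 6 first-cycle pools, where the mean of these genes was low. It was highest at CT60 (2.82), where C1qb was 19103 and Vsig4 14072. The 75th percentile lay between 9.64 and 9.71 in the pools CT61 to CT65.

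Small differences between the cycles were common and large ones were rare. By limma on the 18 paired log2 differences with Benjamini-Hochberg adjustment over all probe sets, 17069 of 45101 probe sets (37.8%) were called at an adjusted p under 0.05, 14115 higher in the second cycle (31.3%) and 2954 lower (6.55%). Of the higher calls, 82.3% had a mean intensity under 100, near the floor of the array, and the median difference of these dim calls was 0.03. Among all probe sets under 100, 51.6% were called higher. Among the 22596 probe sets of mean intensity 100 or more, 23.6% were called, 2495 of them higher and 2845 lower, with median differences of 0.14 and -0.23. Only 10 called probe sets were higher by more than 1.5-fold, and 76 were lower by more than 1.5-fold. The balance of directions depended on the scale: 82.7% of the calls were higher in the deposited values, 26.9% after centring each array on its median (689 higher and 1872 lower) and 68.2% after quantile normalization (1742 higher and 812 lower). Under deposited, centred and quantile values alike, 1471 probe sets were called with the same sign, 684 of them higher and 787 lower.

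**Figure D2:**
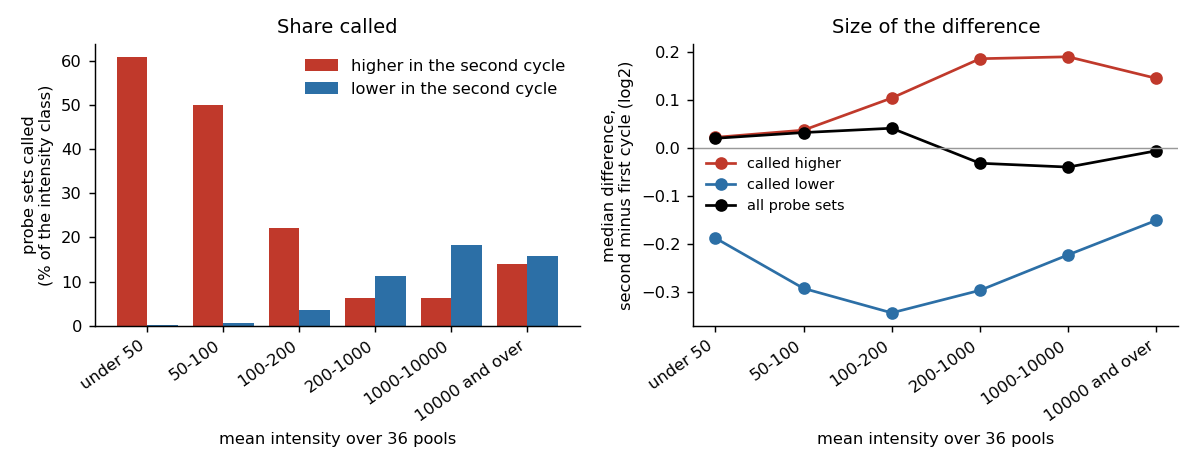
Left, share of probe sets called higher (red) and lower (blue) in the second cycle in 6 classes of mean intensity over the 36 pools; right, median log2 difference, second minus first cycle, of the called probe sets and of all probe sets (black) in each class. Higher calls were most frequent below an intensity of 100, where their median difference was 0.03.

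Among genes read through their brightest probe set, the named gene with the largest increase was Ap2b1, a subunit of the AP-2 adaptor that links cargo to clathrin at the cell surface. Its intensity was lowest at 1655, median 2098 and highest at 2614 in the second cycle, against 493, 1081 and 1486 in the first cycle. Every second-cycle pool lay above every first-cycle pool. The mean difference was 1.02 ± 0.11 on the log2 scale (SE, 18 pairs; higher in 18 of 18; limma, adjusted p = 6.39e-05). The next brightest Ap2b1 probe set was higher by 0.39 on average, in 12 of 18 pairs.

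Retreg3, a receptor for the autophagy of endoplasmic reticulum, had a lowest, median and highest intensity of 2600, 3424 and 4241 in the second cycle and of 1580, 1903 and 2783 in the first. The ranges overlapped only through the pool at CT27. The difference was 0.81 ± 0.07 (SE; higher in 18 of 18 pairs; limma, adjusted p = 7.21e-06), and its other probe set of intensity over 100 was higher by 0.71. Vapb, which tethers endoplasmic reticulum to other membranes, had 2977, 5102 and 8112 in the second cycle and 1392, 3289 and 4714 in the first, with wide overlap. It was higher in 15 of 18 pairs, by 0.72 ± 0.16 (SE; adjusted p = 0.0127), while its 2 other probe sets differed by -0.01 each.

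Smaller increases followed in 8 further genes, and that of C1qb, of similar size, is given below with the Kupffer cell markers. Mpzl1 (0.48), Mfsd9 (0.43), the inhibitory immune receptor Pilra (0.42), Agps of ether lipid synthesis (0.42), the tRNA dihydrouridine synthase Dus4l (0.39), 1810021B22Rik (0.38), the endosomal GTPase Rab5c (0.36) and the minor spliceosome protein Rnpc3 (0.36) were higher in 15 or 16 of 18 pairs, with adjusted p between 0.0115 and 0.0203. None of these 8 kept its call without the 6 pairs of high Actb difference. Smaller but steadier increases were those of Mettl7a2 (0.32, 18 of 18 pairs, adjusted p = 0.000386), of Aldh6a1, a mitochondrial enzyme of valine breakdown (0.15, 18 of 18, adjusted p = 0.000671), and of Gcsh, the H protein of the glycine cleavage system (0.14, 17 of 18, adjusted p = 0.00103). These 3 kept their calls without the 6 pairs (adjusted p = 0.0168, 0.00869 and 0.0305). Aldh6a1 averaged 111691 in the second cycle and 100519 in the first.

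On the lower side, Arf6, a small GTPase of endosome recycling and cortical actin, had a lowest, median and highest intensity of 8560, 16503 and 20245 in the second cycle, against 18111, 24142 and 31730 in the first. The ranges touched only between 18111 and 20245. The difference was -0.65 ± 0.07 (SE; lower in 18 of 18 pairs; limma, adjusted p = 0.00022). Its 3 other probe sets differed by 0.05, 0.04 and -0.15 and were not called. Dock8, an exchange factor for CDC42 known from leukocytes, had 1219, 1809 and 2236 in the second cycle and 2066, 2614 and 3082 in the first. It was lower in 18 of 18 pairs by 0.57 ± 0.07 (SE; adjusted p = 0.000386), again in 1 probe set, its 2 others over an intensity of 100 differing by -0.08 and -0.03.

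Isoc1, an isochorismatase-domain protein, gave the smallest p of the falls. Its lowest, median and highest intensities were 8378, 10673 and 14675 in the second cycle and 11837, 15023 and 18178 in the first. The cycles overlapped, yet within the pairs it was lower in 18 of 18, by 0.41 ± 0.03 (SE; limma, adjusted p = 1.04e-06). Of its 3 other probe sets 1 was called lower (-0.20), 1 was called higher (0.11, adjusted p = 0.0413) and 1 differed by -0.02. Ctcf, the insulator protein that anchors chromatin loops, averaged 2932 ± 430 in the second cycle and 3893 ± 637 in the first (SD, n = 18 pools each), lower by 0.40 in 18 of 18 pairs (adjusted p = 6.39e-05). Zfp622 (-0.29) and Abhd14a (-0.32) were likewise lower in every pair, with adjusted p of 0.000109 and 6.94e-05. At these probe sets Isoc1, Ctcf, Zfp622, Abhd14a, Arf6, Ap2b1 and Retreg3 were called with the same sign under each of 15 alternative settings. The other Ctcf probe set, of mean intensity 3247, differed by -0.16 and was not called (limma, adjusted p = 0.073). Of all 128 named genes called, 66 had another probe set of intensity 100 or more, which was called in the same direction for 32 of them and in the opposite direction for 6 (Csnk1d, Hnrnpu, Dgat1, Zfp622, Isoc1 and Tmie).

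Other decreases were larger but more variable. Bcl2l11, the pro-apoptotic BIM, averaged 554 in the second cycle and 852 in the first (-0.72, 15 of 18 pairs lower, adjusted p = 0.0136). Rfng, a glycosyltransferase of the Notch pathway, differed by -0.66, Ulk1, the kinase that starts autophagy, by -0.62, Trrap, a scaffold of histone acetyltransferase complexes, by -0.61, the adaptor-associated kinase Aak1 by -0.60, the proton pump subunit Atp6v0a1 by -0.57, Tmie by -0.57, the protocadherin Pcdh1 by -0.57 and the pseudokinase Trib1 by -0.54. Each was lower in 15 to 18 of 18 pairs. Without the 6 pairs, Aak1 (adjusted p = 0.0397) and Tmie (adjusted p = 0.0153) were still called at these probe sets, and Bcl2l11, Rfng, Ulk1, Trrap, Atp6v0a1, Pcdh1 and Trib1 were not. A dimmer Tmie probe set was called higher (0.39, 13 of 18 pairs, adjusted p = 0.0245), and the other Aak1 probe set of intensity over 100 differed by 0.02.

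**Figure D3:**
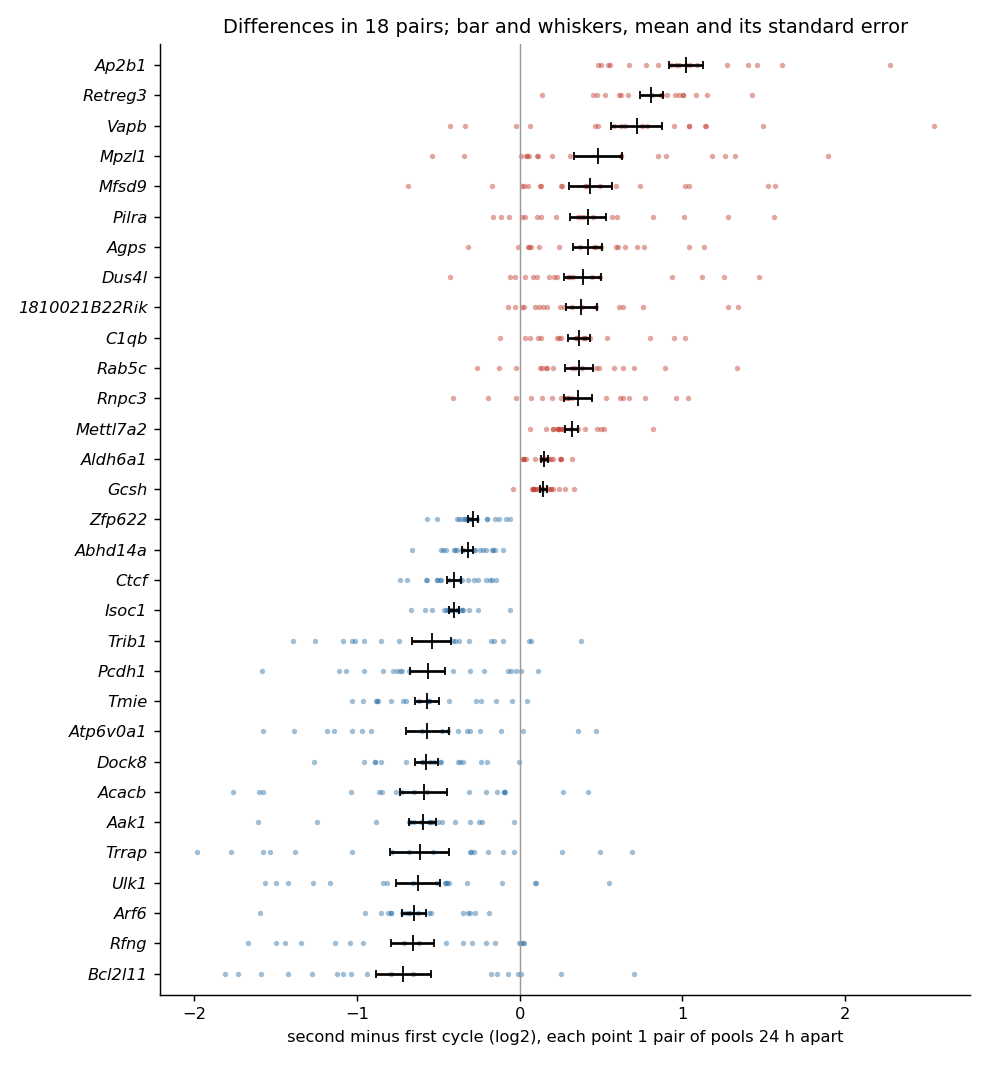
Log2 difference, second minus first cycle, in each of 18 pairs of pools 24 h apart (points) for the genes with the largest differences or smallest p in each direction; bars and whiskers are means and standard errors. Ap2b1 and Retreg3 were higher, and Arf6, Dock8, Aak1, Isoc1, Ctcf, Abhd14a and Zfp622 lower, in 18 of 18 pairs.

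A stricter set was formed from the probe sets called with the same sign in 6 fits: deposited, centred and quantile values, without the 6 pairs of high Actb difference, without the 4 pairs that held the arrays of lowest correlation, and with the Actb difference as a covariate. It held 195 probe sets, 61 higher (0.135% of all tested) and 134 lower (0.297%). When the difference in 75th percentile was also required as a covariate in a 7th fit, 43 were left (0.0953%). Of the 195, 163 had a single gene symbol, from 156 genes. For 122 of the genes the array carried other probe sets of mean intensity 100 or more, 269 in all, of which 83 were called in the same direction, 22 in the opposite direction and 164 not at all. At least 1 other probe set was called in the same direction for 53 of the 122 genes.

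Probe sets whose 18 second-cycle pools all lay above the 18 first-cycle pools numbered 5 of 45101 (0.0111%), and none lay wholly below. Besides Ap2b1 they were probe sets of Supt16, Apc, Apob and Rbbp4 that are not the brightest of their genes, and these 4 are described because their values stood out. Supt16, a subunit of the histone chaperone FACT, had a lowest, median and highest intensity of 1096, 1414 and 1967 in the second cycle and of 292, 531 and 869 in the first (1.37 ± 0.10, SE; limma, adjusted p = 4.63e-07), while its brighter probe set was lower by 0.17. Apc, the Wnt pathway scaffold, had 380, 497 and 1054 in the second cycle and 229, 296 and 375 in the first, a difference of 0.94, while 3 other Apc probe sets differed by -0.02, -0.43 and -0.07. Apob, the structural protein of very low density lipoprotein, had 39131, 47222 and 64297 in the second cycle and 19880, 33010 and 38683 in the first at the dimmer of its 2 probe sets (0.65), against a difference of 0.10 at the brighter (adjusted p = 0.226). Rbbp4, a histone-binding subunit of several chromatin complexes, had 4869, 6046 and 7496 in the second cycle and 3691, 4170 and 4790 in the first (0.52, adjusted p = 4.63e-07), while its brightest probe set differed by 0.005 (adjusted p = 0.925), another by 0.40 and a dimmer one by -0.39.

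The change in these probe sets was placed in time with the 6 pools that lie between the compared stretches. Ap2b1 stayed between 1050 and 1199 at CT36 to CT41, was 1172 at CT41 and 2476 at CT42, held 2083 at CT60 and lay between 559 and 1100 at CT61 to CT65. Retreg3 showed the same course, with 1999 at CT41, 3518 at CT42, 3510 at CT60 and 2009 to 2281 from CT61 on. Retreg3 had also reached 2783 at CT27 in the first cycle, above the pools at CT46 (2775) and CT47 (2600). Supt16 lay between 143 and 443 at CT36 to CT41 and reached 1446 at CT42, the largest of the 47 hourly steps in its course. It was 632 at CT60, between 958 and 1514 at CT61 to CT64 and 461 at CT65. Arf6 was 25538 at CT41 and 13589 at CT42, and Dock8 was 2527 and 1330. Later pools reached at most 20245 for Arf6 and 2236 for Dock8. Dock8 had already been at 1787 at CT37, below every first-cycle pool. Isoc1 ran otherwise: it was 8616 at CT41, below every first-cycle pool, rose to 14471 at CT42 and ended at 5772 to 7702 at CT61 to CT65. The hour CT41 to CT42 gave the largest step of the course in 21 of the 195 probe sets, against 2.07% of all probe sets of intensity 100 or more. Since the 195 were chosen on a contrast that begins at CT42, this count is a description only, and the order in which arrays were processed is not given in the sources used here.

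**Figure D4:**
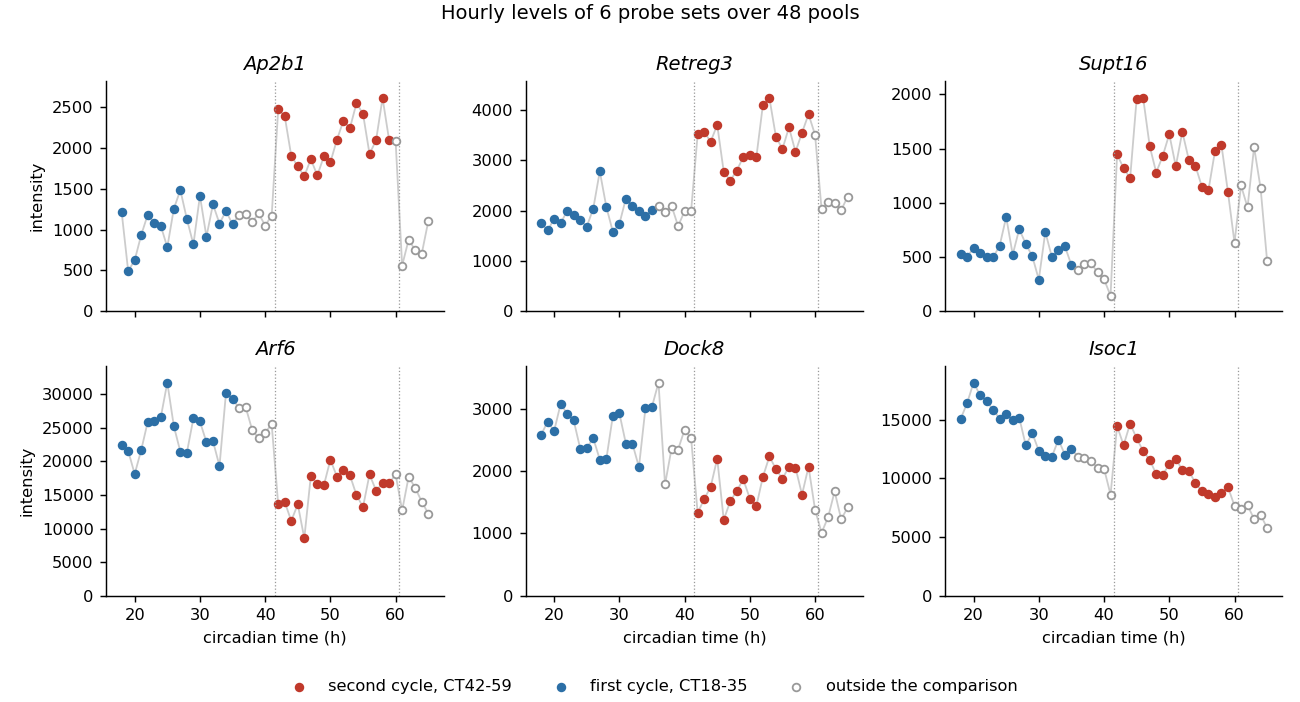
Intensity by circadian time (h) of 6 probe sets over 48 pools, with second-cycle pools in red, first-cycle pools in blue and pools outside the comparison as open circles; dotted lines mark the boundaries between CT41 and CT42 and between CT60 and CT61. Ap2b1 was 2476 at CT42 after 1172 at CT41, and lay between 559 and 1100 from CT61 on.

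Over all 61 higher probe sets of the stricter set, the median level relative to the first-cycle mean was 0.08 at CT36 to CT41, 0.25 at CT42 to CT59 and 0.17 at CT61 to CT65 on the log2 scale. For the 134 lower probe sets it was -0.09, -0.27 and -0.43 at the same times. The pools CT36 to CT41 lay nearer to the first-cycle level than to the second in 35 of 61 (57.4%) and in 78 of 134 (58.2%). For all calls of intensity 100 or more the shares were 33.3% of the higher and 41.2% of the lower. The pools CT36 to CT41 and CT61 to CT65 fall at circadian hours 12 to 17, which the compared stretches do not hold. These levels are not paired by hour, so time of day and cycle cannot be told apart in them. The pools CT60 to CT65 shared no sample with the test, and in pairs with CT36 to CT41 they had the same sign for 85.0% of the 2495 higher calls of intensity 100 or more (50.4% of all such probe sets were higher) and for 76.9% of the 2845 lower calls (49.6% of all were lower). CT61 to CT65 had the lowest 75th percentiles of the series, 9.64 to 9.71, and CT60 the highest Actb difference, 2.82. The part of these array measures in the shared signs was not tested.

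Genes were next read in groups, each through its brightest probe set, against a background of 18194 genes of which 5079 were higher (27.9%) and 1556 lower (8.55%), with a median difference of 0.02. Dim genes raise the higher share of this background. Among the 11109 genes of mean intensity 100 or more, 1183 were higher and 1540 lower, with a median difference of -0.01. Most list members had such an intensity, so this narrower background is the closer one for most lists. Of 32 lists with a call, 24 had none without the 6 pairs of high Actb difference. That fit called only 481 of 45101 probe sets, against 17069 in the 18 pairs, so a lost call is the common case and no trait of a list or gene. Leaving out the 4 pairs of lowest array correlation left a similar number, 489. Calls were left in 8 lists, those of fatty acid and triglyceride synthesis, bile acids, the respiratory chain, the proteasome, ribosomal proteins, the cell cycle, immediate early genes and sex-biased genes. Fatty acid and triglyceride synthesis stood lowest among the metabolic lists: 7 of 22 measured genes were lower and none was higher, with a list median of -0.19 (-0.23 after centring and -0.17 after quantile normalization). Only Mogat1, which was dim, had a positive difference. The 7 called genes act at separate steps of the pathway, and other steps were not called. Pklr, the liver pyruvate kinase, averaged 5321 in the second cycle and 7100 in the first (-0.41, adjusted p = 0.0121). Acly, which makes cytosolic acetyl-CoA, had a lowest, median and highest intensity of 25554, 46253 and 72077 in the second cycle and of 27075, 55944 and 114649 in the first (-0.35, lower in 15 of 18 pairs, adjusted p = 0.0165). The acetyl-CoA carboxylases Acaca (-0.38) and Acacb (-0.59 ± 0.14, SE), the elongase Elovl5 (-0.22), and Gpam (-0.18) and Dgat1 (-0.22), which start and end triglyceride assembly, were lower with adjusted p between 0.0115 and 0.0422. Fasn (-0.34, adjusted p = 0.101) and the regulators Mlxipl (-0.42, adjusted p = 0.0909) and Srebf1 (-0.04) did not pass. Without the 6 pairs the list median was -0.14 and Pklr alone kept its call (adjusted p = 0.0441). The differences of Acacb reached -1.76 in the pair of CT50 and CT26 and -1.61 in the pair of CT55 and CT31, both with first-cycle pools of high Actb difference, and -1.58 in the pair of CT46 and CT22, which has none.

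The drug-metabolizing cytochromes P450 and their regulators lay near the background of all genes. Of 25 measured genes, 5 of them under an intensity of 100, 8 were higher and none lower, against 27.9% and 8.55% of all genes. Of the 11109 genes of intensity 100 or more, 1183 were higher and 1540 lower. The list median was 0.04 (0.01 after centring), against 0.02 for all genes and -0.01 for genes of intensity 100 or more. Cyp3a44 had a lowest, median and highest intensity of 609, 783 and 1080 in the second cycle and of 496, 621 and 909 in the first (0.31, adjusted p = 0.0142). Cyp2c29 (0.12), Cyp2c50 (0.13) and Cyp3a13 (0.16) were higher by less. Cyp2b10 (-0.04) and the receptors Nr1i2 (-0.14) and Nr1i3 (-0.07) did not pass. No member kept its call without the 6 pairs.

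Fatty acid oxidation did not move as 1 group. Of 26 genes 1 was higher and 3 lower, and the median was -0.02: Hadhb, the beta subunit of the trifunctional protein, was higher by 0.17 (adjusted p = 0.0136), while Hadha, its alpha subunit, was lower by 0.17 (adjusted p = 0.0133), Acadvl by 0.13 and the coactivator Ppargc1a by 0.27. In cholesterol synthesis 1 of 21 was higher, Stard4 (0.29), a cholesterol carrier, and 3 were lower, the enzymes Dhcr7 (-0.34) and Hsd17b7 (-0.20) and the regulator Srebf2 (-0.20). Other Stard4 probe sets, of mean intensity 14946 and 11787, differed by 0.006 and -0.12 and were not called. Gluconeogenesis and glycogen gave 1 higher (Gbe1, 0.09) and 2 lower (Foxo1, -0.30, and Pcx, -0.23) of 17. Amino acid breakdown and the urea cycle gave Otc (0.17) higher and Gpt (-0.15) lower of 20. In bile acid synthesis and transport, the uptake carriers Slc10a1 (0.07) and Slco1b2 (0.09) and the acyl-CoA synthetase Slc27a5 (0.06) were higher, and the carrier Slco1a1 (-0.15, 16 of 18 pairs lower) and the bile acid receptor Nr1h4 (-0.15) were lower, of 15. Without the 6 pairs Slco1a1 was still called (adjusted p = 0.035), and no gene of the oxidation, cholesterol, gluconeogenesis or amino acid lists was. The other Slco1a1 probe set, of mean intensity 32090, differed by 0.002 in the 18 pairs and was not called.

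Respiratory chain subunits split within complexes. Of 29 genes 6 were higher and 7 lower, with a median of 0.01 (-0.03 after centring). In complex I, Ndufb5 averaged 79451 in the second cycle and 70529 in the first (0.17, 16 of 18 pairs higher, adjusted p = 0.00682), whereas Ndufs3 averaged 42118 in the second cycle and 48139 in the first (-0.19, 18 of 18 pairs lower, adjusted p = 0.00174). In complex IV, Cox5a was higher (0.14), and Cox4i1 (-0.11) and Cox7a2 (-0.12) were lower. Ndufb5, Ndufs3, Cox4i1 and Cox7a2 kept their calls without the 6 pairs. Proteasome subunits likewise gave 4 higher, Psmb7 (0.15) among them, and 4 lower, Psmd3 (-0.38) and Psmb3 (-0.18) among them, of 30, and cytosolic ribosomal proteins 4 higher and 3 lower of 19. Psmb7, Psmd3 and Psmb3 were not called without the 6 pairs. Of 19 heat shock proteins 0 were called by limma and 1 had an unadjusted p under 0.05, and of 22 interferon-stimulated and antigen presentation genes 0 were called and 0 had such a p.

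Secreted proteins and conjugating enzymes of the hepatocyte gave calls in both directions, read against the same backgrounds. Of 23 acute phase proteins 3 were higher and none lower: the pentraxin Crp averaged 120321 in the second cycle and 111024 in the first (0.12, 16 of 18 pairs higher, adjusted p = 0.0153), and the copper carrier Cp (0.11) and the protease inhibitor Serpina3n (0.16) were higher too. Of 16 genes of cholesterol export and apolipoproteins 3 were lower, Apoa1 (-0.02), Apoc3 (-0.04) and Apoa4 (-0.17). Among 23 genes of phase II conjugation and NRF2 targets, the glutathione transferase Gstm3 (0.20) and the glucuronosyltransferases Ugt2b35 (0.14) and Ugt2b1 (0.07) were higher, and the thioredoxin reductase Txnrd1 was lower (-0.26). Sex-biased and growth hormone responsive genes gave 5 higher, among them the male-biased Cyp4a12a (0.17), and 3 lower, of 25. None of the acute phase, apolipoprotein or conjugation genes kept its call without the 6 pairs.

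Among housekeeping groups, the membrane chaperone Canx averaged 86351 in the second cycle and 78533 in the first (0.14, 16 of 18 pairs higher, adjusted p = 0.00455), Dnajc3 was higher (0.15) and the stress sensor Atf6 lower (-0.25), of 23 genes of the unfolded protein response. Other Atf6 probe sets, of mean intensity 1089 and 2292, differed by 0.04 and -0.002 and were not called. The splicing factors went both ways, with Srsf3 (0.22), Srsf2 (0.16) and Hnrnpa2b1 (0.07) higher and Hnrnpd (-0.21), Hnrnpu (-0.18) and Srsf6 (-0.16) lower, of 20. Another Hnrnpu probe set was higher by 0.43 in 18 of 18 pairs (adjusted p = 0.000386). Metal handling gave Hfe (0.14) and Cp higher and the zinc transporters Slc39a14 (-0.35) and Slc30a1 (-0.13) lower, of 14. Of 20 actin and tubulin genes 6 were higher and 1 lower, the smooth muscle actin Acta2 (0.28) and the filamin Flna (-0.29) being the furthest called member in each direction. Without the 6 pairs no gene of the chaperone, splicing, metal or actin lists was called, Canx included.

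Few clock genes passed the test for a difference in level, and their probe sets disagreed in places. Of 21 measured genes of the clock loop and its PAR bZIP output factors, 3 were higher and 1 lower. Hlf, a PAR bZIP activator, had a lowest, median and highest intensity of 2161, 3362 and 5998 in the second cycle and of 2903, 4568 and 9145 in the first, lower in 17 of 18 pairs by 0.44 ± 0.11 (SE; adjusted p = 0.0136), but not past the threshold without the 6 pairs (-0.27, adjusted p = 0.143). Csnk1d, a casein kinase that phosphorylates PER, was higher by 0.19 at its brightest probe set (adjusted p = 0.0122) but lower by 0.29 at another (17 of 18 pairs, adjusted p = 0.00691). Clock was higher by 0.16 at its brightest probe set (adjusted p = 0.0299), while its 3 others differed by -0.12 to -0.13 and did not pass. Bhlhe41, the third higher call, was dim (0.02). None of these 4 calls held without the 6 pairs. Rora, a nuclear receptor that activates Arntl, was not called at its brightest probe set (0.04, adjusted p = 0.403), but 3 others were called lower, by 0.38 (17 of 18 pairs, adjusted p = 0.00865), 0.32 and 0.17. Among other members that did not pass, Arntl differed by 0.25 ± 0.25, Dbp by -0.29 ± 0.21, Nr1d1 by -0.16 ± 0.14, Per2 by -0.18 ± 0.17, Per3 by -0.02 ± 0.17, Per1 by 0.15 ± 0.12, Cry1 by -0.13 ± 0.09, Nr1d2 by 0.19 ± 0.10 and Bhlhe40 by -0.22 ± 0.13 (SE, 18 pairs). Their differences varied between single pairs. That of Arntl averaged -0.09 in CT42 to CT47, -0.07 in CT48 to CT53 and 0.90 in CT54 to CT59 (SE of each, 0.42). Single pairs weighed heavily on these means, with -2.205 at CT53, 3.125 at CT55 and 2.305 at CT59. Arntl was 1128 at CT55 and 545 at CT59, against 129 and 110 in the paired first-cycle pools. A change in level of the size seen for Hlf was thus not detectable for Arntl in 18 pairs.

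Whether the difference depended on the hour was tested with a 24 h cosine and sine in the 18 differences. Only 1 probe set passed (0.00222%), that of Zbed5, with a mean intensity of 88.2 in the second cycle and 102 in the first (limma F test, adjusted p = 0.0139), while 3063 had an unadjusted p under 0.05. Zbed5 lay between 121 and 161 in the first-cycle pools CT30 to CT35 and between 74.9 and 85.3 in the other first-cycle pools, and the second-cycle pools at the same hours as the high ones, CT54 to CT59, lay between 85.7 and 118. No clock gene passed (adjusted p from 0.679 upward). Ankrd39 came closest among genes of intensity 200 or more, with -0.55 in CT42 to CT47, 0.20 in CT48 to CT53 and 0.25 in CT54 to CT59 (adjusted p = 0.229), followed by Gpsm2 (adjusted p = 0.294), Cbr1 and Bank1 (0.375 each), and A1cf, Stk4 and Atp8b1 (0.446 each).

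Markers of other liver cells were read in the same way, and in pooled tissue fewer cells of a type and less RNA per cell cannot be told apart. Of 9 Kupffer cell markers 3 were higher and none lower, 8 of 9 had a positive difference, and the list median was 0.11. Among all genes 27.9% were higher and 8.55% lower. Of the 11109 genes of intensity 100 or more, which hold all 9 markers, 1183 were higher and 1540 lower. C1qb, a chain of complement C1q, had a lowest, median and highest intensity of 14674, 16210 and 23864 in the second cycle and of 8486, 13529 and 16651 in the first (0.36 ± 0.07, SE; 17 of 18 pairs higher; adjusted p = 0.00784). The complement receptor Vsig4 (0.44, adjusted p = 0.0173) and Adgre1, the F4/80 antigen (0.27, adjusted p = 0.0299), were higher in 12 and 14 of 18 pairs. The other markers, Clec4f (0.10), Cd5l (0.11), C1qa (0.19), C1qc (0.06), Timd4 (0.11) and Marco (-0.09), did not pass. Summed over the 9 markers, intensity ranged from 64390 to 108388 in the second cycle and from 42933 to 86122 in the first. The first-cycle pool CT27, with the highest Actb difference of the 36 pools, had the lowest C1qb, 8486, and the lowest Vsig4, 4603. Vsig4 lay between 4603 and 11138 in the 6 first-cycle pools of high Actb difference and between 11455 and 18245 in the other first-cycle pools. The 3 called genes did not always go together. CT32, at an Actb difference of 2.08, had a C1qb of 15051, a Vsig4 of 10336 and an Adgre1 of 1622. Their first-cycle averages were 13602, 12102 and 2311. CT60, outside the comparison and highest of the series at 2.82, had a C1qb of 19103 and a Vsig4 of 14072. Without the 6 pairs the list median was -0.01 and no member was called, C1qb at 0.31 with an adjusted p of 0.0805. The part of RNA integrity in the Kupffer values was not tested further.

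Sinusoidal endothelial markers went both ways: Fcgr2b (0.35) and Clec4g (0.25) were higher and Stab1 (-0.34) lower of 8, with no call left without the 6 pairs. Of 8 stellate cell markers the collagens Col1a2 (-0.16) and Col3a1 (-0.28) were lower and none was higher, and without the 6 pairs neither was called and the list median of -0.12 became -0.03. Lymphocyte markers, 4 of the 9 under an intensity of 100, gave 4 higher, against 27.9% of all genes. Of these calls Ms4a1 (0.25) and Cd8a (0.13) had an intensity over 100, and none was called without the 6 pairs. The 7 genes of pancreatic acinar cells, which are no part of the liver, varied between single pools, summing to 5460 to 163912 in the second cycle and 5072 to 521551 in the first, and by limma 0 were called, with 0 at an unadjusted p under 0.05. Higher calls numbered 2 of 5 bile duct, 2 of 7 neutrophil, 1 of 3 erythroid, 2 of 4 adipocyte and 2 of 8 muscle markers, and none was lower. Of these calls only Epcam (0.09), Myh4 (0.05) and Acta2 had an intensity over 100. Among all genes 27.9% were higher, and among all probe sets under 100 it was 51.6%, so these counts are no trait of a cell type.

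**Figure D5:**
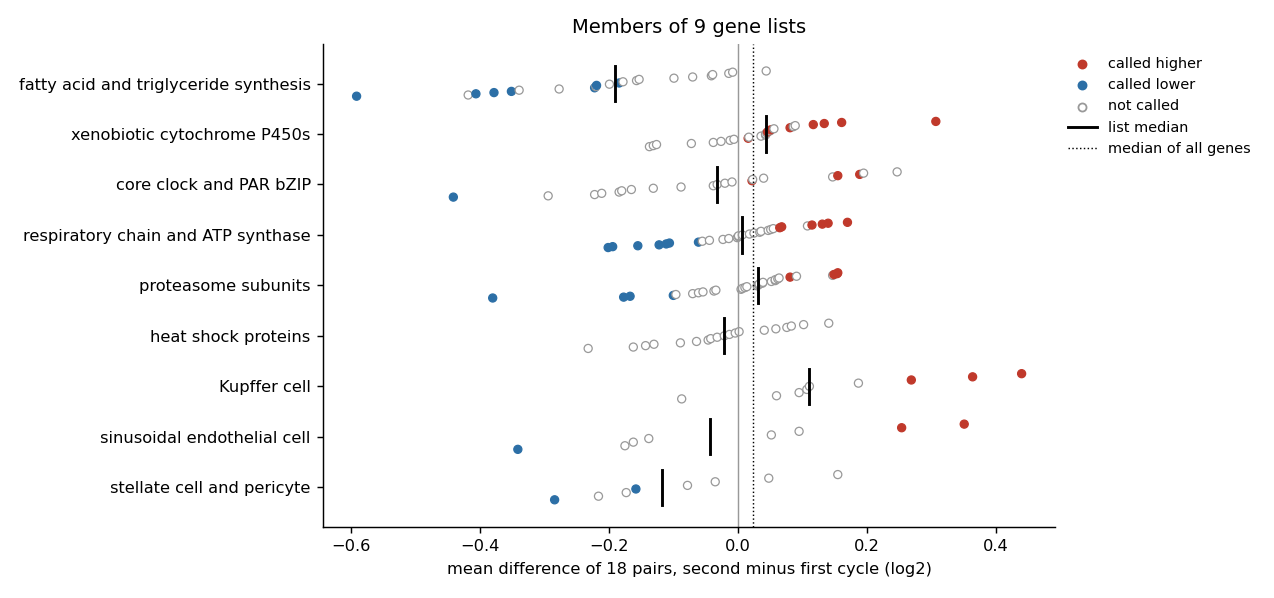
Mean log2 difference of 18 pairs, second minus first cycle, for the measured members of 9 gene lists (points; red, called higher; blue, called lower; open, not called), with the median of each list (black bar) and of all genes (dotted line, 0.02). Fatty acid and triglyceride synthesis has a median of -0.19 and the Kupffer cell list one of 0.11.

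Among the remaining lists, the immediate early gene Jund, an AP-1 subunit, was lower by 0.36 in 17 of 18 pairs (adjusted p = 0.00565), Klf6 was lower by 0.21 and Egr2 higher by 0.12. The cell cycle list gave 6 higher and 4 lower of 27. Cdkn1b, the inhibitor p27, had a lowest, median and highest intensity of 2821, 3829 and 5266 in the second cycle and of 3071, 4415 and 6287 in the first and was lower in 18 of 18 pairs (-0.22 ± 0.03, SE; adjusted p = 0.000671). Its other probe set, of mean intensity 340, differed by -0.07 and was not called. Cdkn1a, the inhibitor p21 and also a glucocorticoid target, was at a median of 70.5 in the second cycle and 70.0 in the first, and its mean difference of -0.80 (adjusted p = 0.0164) came from a minority of bright first-cycle pools, up to 696, with 11 of 18 pairs lower. Zbtb16, another glucocorticoid target, was lower by 0.48 (adjusted p = 0.0234). Without the 6 pairs Jund (adjusted p = 0.035) and Cdkn1b (adjusted p = 0.0337) were still called, and Klf6, Egr2, Cdkn1a and Zbtb16 were not. Adipor2, a receptor for adiponectin, was lower in 18 of 18 pairs at 1 probe set (-0.52 ± 0.04, SE; adjusted p = 5.43e-06), as was the AMP-activated kinase subunit Prkaa2 in 17 of 18 (-0.52, adjusted p = 0.000424), both named after their values were seen. A brighter Adipor2 probe set, at a mean intensity of 35456, differed by -0.08 and was not called (limma, adjusted p = 0.282). Other Prkaa2 probe sets differed by -0.31 (called, adjusted p = 0.0141) and by -0.015 (adjusted p = 0.812).

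Genomic length was set beside the direction of change. At a mean intensity of 100 or more, 487 genes fell and 98 rose beyond 1.2-fold, and their median genomic lengths were 36.9 kb and 19.9 kb, against 23.3 kb for all 11109 genes of that intensity. In the stricter set the order was different, with a median of 14.4 kb for the 77 lower genes and 25.0 kb for the 28 higher ones. These medians are descriptions without a test.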

How the data were processed

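Liver arrays were deposited as linear intensities, which the authors extracted with GCRMA according to the study's methods; the labels also name MAS5, and neither version is given in the sources used here. The 36 pools ranged from 20.6 to 1216733. Intensities were taken to log2 as deposited and not rescaled. The number of arrays, 1 per hour, limits precision. Differences of 18 pairs were fitted with limma 3.58.1 in R 4.3.3 (lmFit, eBayes, Benjamini-Hochberg over 45101 probe sets). Of the probe sets, 34958 had 1 gene symbol in the platform annotation, 932 several and 9211 none, and a gene was read through the probe set of highest mean.

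Pairing by hour is part of the comparison: same-hour pools were 24 h apart, from different mice. Named are the 12 largest called differences in each direction (mean intensity 200 or more, same sign in at least 15 of 18 pairs), the 5 smallest p in each direction, up to 4 called members of each of 35 lists (560 of 627 genes measured), the clock genes and 8 genes for the hour test; others are marked as chosen from their values. The members and lists were chosen with earlier results of these data known. Array measures used 100000 sign permutations. The fit was tested on simulated differences. Alternatives were other scalings, a pseudocount of 50, an intensity minimum of 100, no replicate block, harmonics of 24, 12 and 8 h, 3 h means, a trend, 24 pairs and leaving out each pair; leaving out pairs by Actb difference or correlation, and covariates, were added after seeing the data.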

Additional observations from a re-analysis of the deposited data

Results flagged for a closer look

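The difference between the cycles depended on the hour for 1 probe set, that of Zbed5 (24 h cosine and sine, limma F test, adjusted p = 0.0139; 3 blocks of 6 hours, adjusted p = 0.0346). Its mean differences were 0.07 in CT42 to CT47, 0.02 in CT48 to CT53 and -0.57 in CT54 to CT59. The probe set was dim, and the first-cycle pools CT30 to CT35 held its highest values.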

How the results depend on the processing

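The 17069 calls (14115 higher and 2954 lower in the second cycle) became 2554 (1742 higher and 812 lower) with quantile normalization, 2561 (689 and 1872) with arrays centred on their median, 3033 (1225 and 1808) with a minimum intensity of 100, 3307 (581 and 2726) with that minimum and centring, 2790 (1700 and 1090) with it and quantile normalization, 9573 (8031 and 1542) with a 24 h term beside the mean and 627 (186 and 441) with 6 means of 3 adjacent hours. They became 481 (114 higher and 367 lower) without the 6 pairs of high Actb difference, 489 (193 and 296) without the 4 pairs of lowest array correlation, 918 (364 and 554) with the Actb difference as a covariate and 59 (25 and 34) with the difference in 75th percentile as a covariate. Fits with fewer pairs also have fewer degrees of freedom, and the cause of the losses was not tested further. With 24 pairs 5043 probe sets were lower. Leaving out 1 pair gave 13498 to 19436 calls, 11280 to 16176 higher and 2179 to 3565 lower. With no replicate block, pools taken as 2 groups without pairing by hour, 17076 were called (14715 higher and 2361 lower). Probe sets varying with the hour numbered 1 in the 18 pairs, 0 with quantile normalization, centring or the intensity minimum (limma, with 3063 at an unadjusted p under 0.05 in the deposited values), 1226 with 24 pairs and 0 to 2 when 1 pair was left out. The hybridization controls, higher by 0.155 in the second cycle (permutation test, adjusted p = 0.0422), had an adjusted p of 0.065 after centring.

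Of the 128 named genes called, 76 kept call and sign with quantile normalization, 67 with centring and 23 without the 6 pairs. The sign turned after centring for Cd79a (-0.001), Rps16 (-0.006), Plk1 (-0.011), Fosb (-0.012), Hba-a1 (-0.011), Retn (-0.012), Bhlhe41 (-0.012) and Cldn4 (-0.019), with quantile normalization for Hba-a1 (-0.005), Bhlhe41 (-0.002) and Cldn4 (-0.000), with 24 pairs for Gstm3 (-0.086), and with the 75th percentile as a covariate for Cd3g (-0.004) and Pcx (0.014). Apart from Gstm3 and Pcx these genes had an intensity under 100.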
